A study of Mus musculus with 15 samples.

Results

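Nupr1 and 9 genes of the integrated stress response were followed through mouse islet cells with and without the transcription factor Pdx1. The 10 genes were Nupr1, Atf4, Ddit3, Trib3, Chac1, Asns, Sesn2, Atf5, Vldlr and Ppp1r15a, out of 19938 genes measured. They were chosen by symbol, and Nupr1 was put first because earlier results of these data showed it lower in Pdx1-deficient arrays. Its values, and those of the other 9 genes in Pdx1-deficient against beta arrays, are therefore given as a description with no test. Each of the 10 genes had exactly 1 transcript cluster annotated to it alone, so no choice between clusters was made.

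The study profiled RNA on 15 Affymetrix Mouse Gene 1.0 ST arrays, 5 titled beta cells (the insulin-producing cells), 5 titled alpha cells (the glucagon-producing cells) and 5 titled Pdx1-deficient cells. All mice had a mixed B6 and BALB/C strain background. The beta arrays carry the genotype label glucagon-Cre; RosaYFP, and the alpha arrays carry RIP-CreER; Pdx1fl/+, RosaYFP, so by these labels 1 Pdx1 allele of the alpha controls is floxed. These controls were islet cells sorted for YFP at an age of 2 months. A glucagon promoter usually drives Cre in alpha cells and an insulin promoter (RIP) in beta cells, the opposite of the way these labels pair them. If the labels were exchanged, the floxed allele would lie in the beta controls, and the labels do not settle this. The Pdx1-deficient arrays carry the genotype label Pdx1-deficient (PKO) and the subtype label reprogrammed cells, and the mice were examined 5 days after tamoxifen. The labels do not say whether controls received tamoxifen, how old the Pdx1-deficient mice were or how their cells were sorted. Whether each replicate is an animal of its own is not stated either, and the p-values here describe the spread among these arrays alone, part of which could be technical.

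Values are log2 signals as the authors deposited them, with array medians of 5.88 to 6.05. Their spread was not equal. Lower and upper quartiles were 4.555 to 4.658 and 7.345 to 7.4 in beta arrays, and 4.659 to 4.76 and 7.245 to 7.358 in alpha arrays. Pdx1-deficient replicates 4 and 5 had the narrowest values of their group, with quartiles of 4.805 and 7.236, and of 4.796 and 7.247. The mean signal of 11 beta-cell identity genes ran from 10.39 to 10.69 in beta arrays, 9.08 to 9.71 in alpha arrays and 9.12 to 10.62 in Pdx1-deficient arrays. That of 8 alpha-cell identity genes ran from 7.91 to 8.13, 8.40 to 9.36 and 8.36 to 8.62, so both lists separated every alpha from every beta array in the direction of the titles. The hormone genes separated these groups little, with alpha minus beta at 0.10 for Ins2 and 0.39 for Gcg. Some arrays stood apart. Pdx1 read 9.12 in the array labelled Pdx1-deficient replicate 1, inside the range of 8.85 to 9.33 in beta arrays, and 6.53 to 7.83 in the other 4 of that group. The beta-cell identity mean of that replicate 1 was 10.62, also inside the beta range, against 9.12 to 9.78 in the other 4. Pdx1-deficient replicates 4 and 5 correlated least with their own group (mean r of 0.937 and 0.940). Alpha replicate 5 had a high acinar marker signal, given beside Nupr1 below, and alpha replicate 2 read 8.15 for the stress gene Atf3 where the other alpha arrays read 10.36 to 11.17. The alpha-cell identity mean of alpha replicate 2 was 8.40, inside the Pdx1-deficient range, against 9.22 to 9.36 in the other alpha arrays.

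The integrated stress response is a shared answer to several kinds of cell stress. Kinases that sense unfolded protein in the endoplasmic reticulum (PERK), missing amino acids (GCN2), viral RNA or lack of heme phosphorylate the translation initiation factor eIF2, which lowers protein synthesis overall while the mRNA of the transcription factor ATF4 is translated more. ATF4, often with CHOP (Ddit3) and C/EBP proteins, then switches on genes for amino acid import and synthesis, tRNA charging and redox balance, and a subunit of a phosphatase that ends the response. Beta cells carry a heavy load of proinsulin folding, and loss of PERK is known to cause diabetes in mice and humans. Nupr1 encodes a small nuclear protein first described in the injured pancreas and is itself an ATF4 target in several cell types.

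ATF4 and C/EBP proteins bind a composite site called the C/EBP-ATF response element, whose core was searched as TGATGNAA on both strands of the 300 bases from 250 before to 50 after each RefSeq gene start (GRCm38.p6). All 10 genes matched a promoter, with 12 windows in all because Atf5 and Vldlr have 2 starts each. Nupr1, Trib3, Chac1, Asns and Vldlr held a match, 5 of the 10 genes, where 4.51% of all 27025 genes with a window and 3.97% of all 32851 windows did. Known ATF4 targets were among the genes chosen, so this count is not an independent test. The 5 sequences are shown to let the matches and the bases around them be compared. Capitals mark the match as it reads on the gene's own strand, either TGATGNAA or its reverse complement, and each sequence runs 5′ to 3′ on that strand.
Nupr1, chr7:126625471-126625720, minus strand, the 250 bases before the start: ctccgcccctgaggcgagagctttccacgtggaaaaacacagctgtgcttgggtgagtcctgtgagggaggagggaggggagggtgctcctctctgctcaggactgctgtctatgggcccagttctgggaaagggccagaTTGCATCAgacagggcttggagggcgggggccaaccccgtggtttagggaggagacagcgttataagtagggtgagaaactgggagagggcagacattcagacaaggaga
Chac1, chr2:119351038-119351067, plus strand: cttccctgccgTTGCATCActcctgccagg
Vldlr, chr19:27216809-27216838, plus strand: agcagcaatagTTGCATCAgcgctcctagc
Trib3, chr2:152344028-152344057, minus strand: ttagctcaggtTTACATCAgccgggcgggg
Asns, chr6:7693214-7693243, minus strand: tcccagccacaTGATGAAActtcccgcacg

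The match began 110 bases before the start of Nupr1, 193 before that of Chac1, 23 before that of Asns and 200 before 1 of the starts of Vldlr. In Trib3 it lay at base 15 after the start. Nupr1, Chac1 and Vldlr shared the same 8 bases, the form TGATGCAA on the opposite strand, which 1.03% of all genes and 0.895% of all windows held. This form is contained in the first motif. The cAMP response element TGACGTCA, a site of the wider CREB and ATF family, was found in Ppp1r15a alone of the 10, against 2.03% of all genes and 1.79% of windows. The endoplasmic reticulum stress response element, a longer motif bound by ATF6, was in 0 of the 10 promoters, against 0.137% of genes and 0.119% of windows. In the list of IRE1 and ATF6 target genes these counts were 7 of 19 for the endoplasmic reticulum stress element and 0 of 19 for TGATGNAA. Among tRNA synthetase genes 4 of 11 held TGATGNAA, and among ATF4 and CHOP targets outside the 10 genes 7 of 28. The target lists were made of known targets, so their counts are not an independent test either. These are matches of letters in short windows and show no binding.

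Nupr1 was the gene with the lowest mean difference from beta arrays among all 19938, in the Pdx1-deficient and also in the alpha arrays. The 5 beta arrays read 11.06, 11.70, 11.46, 11.38 and 9.95 on the log2 scale. The 5 Pdx1-deficient arrays read 9.004, 8.15, 7.97, 7.06 and 7.41, and the 5 alpha arrays 6.97, 7.94, 6.85, 7.14 and 11.48. All Pdx1-deficient arrays lay below all beta arrays. The highest of them was the array labelled replicate 1, the array with Pdx1 at the beta level and with the highest acinar marker mean of its group. The lowest beta array was replicate 5. Alpha replicates 1 to 4 also lay below every beta array, while alpha replicate 5 lay inside the beta range, above 4 of the 5 beta arrays.

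**Figure D1:**
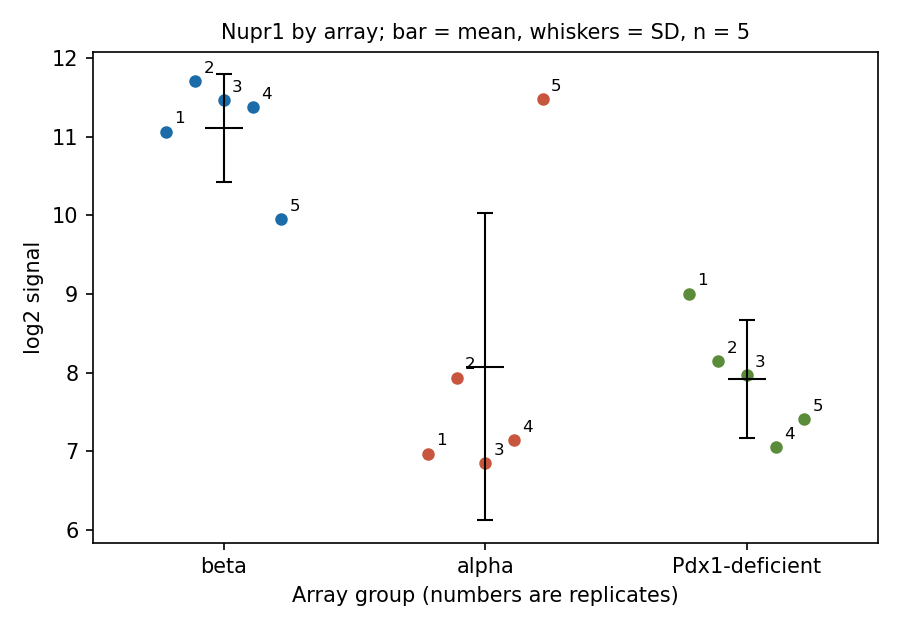
Nupr1 log2 signal (vertical axis) in each of the 15 arrays by group, with each group's mean and SD (n = 5). The 5 Pdx1-deficient arrays lie between 7.06 and 9.004 and all 5 beta arrays between 9.95 and 11.70, while alpha replicate 5 reads 11.48, apart from the other 4 alpha arrays at 6.85 to 7.94.

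Means were 11.11 ± 0.69 (SD, n = 5) in beta, 7.92 ± 0.75 (SD, n = 5) in Pdx1-deficient and 8.08 ± 1.95 (SD, n = 5) in alpha arrays. Pdx1-deficient minus beta was -3.19 (SE 0.72), a 9.15-fold lower signal if the log base is 2, and it was -3.46 without the array labelled Pdx1-deficient replicate 1 and -2.74 without replicates 4 and 5 of that group. In a bulk sample, fewer cells that carry a transcript and less of it per cell cannot be told apart. Alpha minus beta was -3.04 (SE 0.72), and without alpha replicate 5 it was -3.89, with an alpha mean of 7.22 ± 0.49 (SD, n = 4). Pdx1-deficient minus alpha was -0.16 with all arrays and 0.69 without alpha replicate 5, so the order of these groups depended on that array. Nupr1l, the paralog of Nupr1, averaged 7.38, 7.14 and 7.22 in beta, alpha and Pdx1-deficient arrays and did not pass against beta (limma adjusted p = 0.534 for alpha and 0.643 for Pdx1-deficient).

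Nupr1 is strongly expressed in the exocrine pancreas under stress, so acinar markers were read in the same arrays. The mean signal of 12 acinar genes was 10.68 in alpha replicate 5 and 5.89 to 7.10 in the other 14 arrays. In alpha replicate 5, 9 of the 12 genes read above 11 and above every other array, digestive enzyme genes such as Cpa1 at 11.92 among them, and the exceptions were the acinar transcription factor genes Bhlha15, Ptf1a and Rbpjl. The array labelled Pdx1-deficient replicate 1, highest in Nupr1 of its group, had an acinar mean of 6.74, with Ctrb1 at 9.50 and Cpb1 at 8.84. The acinar mean was 5.89 to 6.12 in the rest of that group. In alpha replicate 2, highest in Nupr1 among alpha replicates 1 to 4, these values were 7.10, 9.71 and 9.10. Among beta arrays the acinar mean was highest in replicate 4 and Nupr1 in replicate 2. In beta arrays the acinar mean was 5.94 to 6.84 and in Pdx1-deficient arrays 5.89 to 6.74, and these ranges overlapped. The mean of 10 stromal and stellate cell genes separated these 2 groups, at 5.56 to 5.74 in Pdx1-deficient and 5.30 to 5.52 in beta arrays. Its part in the results was not tested. The part of acinar signal in the Nupr1 readings of alpha replicate 5, alpha replicate 2 and Pdx1-deficient replicate 1 was not tested. Nor was its part in the Nupr1 difference between Pdx1-deficient and beta arrays tested.

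**Figure D2:**
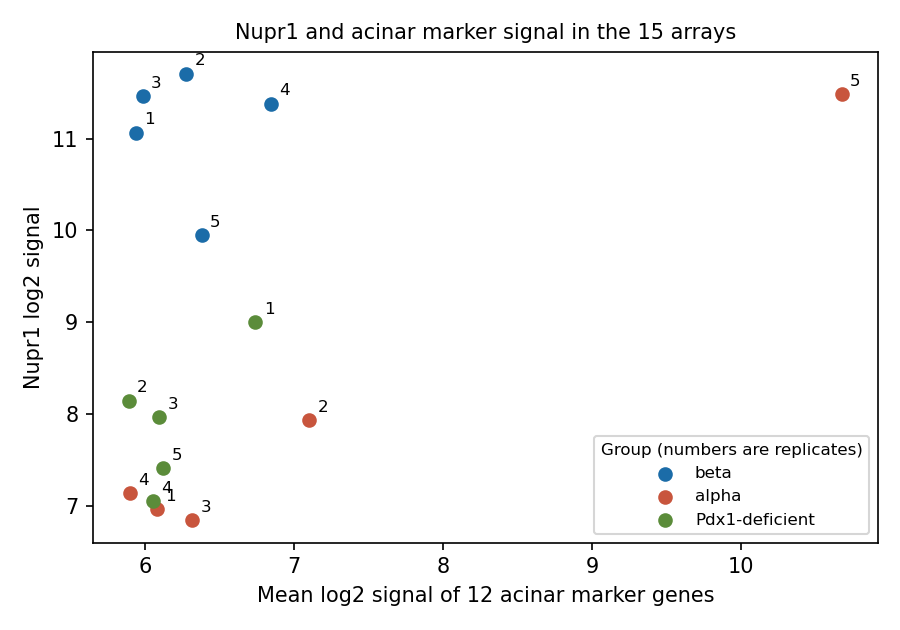
Nupr1 log2 signal (vertical axis) against the mean log2 signal of 12 acinar marker genes (horizontal axis), 1 point per array, numbered by replicate and coloured by group. Alpha replicate 5 stands alone at 10.68 on the acinar axis. Beta arrays lie at 5.94 to 6.84 and Pdx1-deficient arrays at 5.89 to 6.74 on that axis.

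Among 9563 genes above the median mean signal, those whose pattern over the 15 arrays was most like that of Nupr1 by Pearson's r were Sel1l (0.93), Stau2 (0.88), Arhgap35 (0.87), Tmed6 (0.86) and Rfwd3 (0.86). Without alpha replicate 5 these were 0.93, 0.91, 0.87, 0.85 and 0.89. Without that array and with group means subtracted, they were 0.59, 0.66, 0.61, 0.13 and 0.69. Sel1l, a component of the machinery that removes misfolded protein from the endoplasmic reticulum, averaged 9.31 in beta, 7.93 in alpha and 8.15 in Pdx1-deficient arrays, and 9.08 in alpha replicate 5. With group means subtracted, the 5 most alike were digestive enzyme or cofactor genes of acinar cells, Ctrl (0.91), Try5 (0.90), Prss2 (0.89), Clps (0.88) and Pla2g1b (0.88). Their r without alpha replicate 5, with group means again subtracted, was 0.57, 0.59, 0.43, 0.36 and 0.33. Without that array and with group means kept, it was -0.08, 0.21, -0.18, 0.20 and -0.58. Among the other 9 stress response genes, r with Nupr1 over the 15 arrays was highest for Asns (0.79) and Atf5 (0.72) and lowest for Ppp1r15a (-0.09). Without alpha replicate 5 the order changed, with Asns at 0.91, Vldlr at 0.84 (0.54 over all arrays), Atf5 at 0.79 and Ppp1r15a at -0.14. Where group means were not subtracted, r takes in the differences between groups, and over the 15 arrays it takes in alpha replicate 5. All these correlations are given as a description.

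The transcription factors of the set differed less from beta arrays than Nupr1 did. Atf4, the central activator, read 9.33, 9.74, 9.72, 9.40 and 10.02 in beta arrays and 9.29, 9.07, 8.94, 8.98 and 8.54 in Pdx1-deficient arrays. All Pdx1-deficient arrays lay below all beta arrays, although the closest pair was 9.29 and 9.33. The alpha arrays read 9.30, 9.08, 9.31, 9.35 and 8.89 and overlapped both groups.

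Atf4 averaged 9.64 ± 0.28 (SD, n = 5), 9.19 ± 0.19 (SD, n = 5) and 8.96 ± 0.27 (SD, n = 5) in beta, alpha and Pdx1-deficient arrays. Pdx1-deficient minus beta was -0.68 (SE 0.15), a 1.60-fold lower signal. The alpha arrays differed from beta by -0.45 (SE 0.15), which did not pass (limma adjusted p = 0.109). ATF4 is controlled largely by translation, which an mRNA array does not read.

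Ddit3 encodes CHOP, the factor tied to cell death when the response persists. It read 8.87, 9.71, 9.80, 9.22 and 9.67 in beta arrays, 9.23, 8.99, 9.49, 10.23 and 9.63 in alpha arrays and 9.29, 8.73, 9.12, 8.27 and 8.60 in Pdx1-deficient arrays. The 3 groups overlapped, with the Pdx1-deficient arrays toward the low end. Pdx1-deficient minus beta was -0.65 (SE 0.25), and -0.41 without Pdx1-deficient replicates 4 and 5. The difference of alpha from beta arrays was 0.06 (SE 0.25; limma adjusted p = 0.91), a difference whose sign turned when beta replicate 1 or alpha replicate 4 was left out. Pdx1-deficient minus alpha was -0.71, which did not pass after adjustment (limma adjusted p = 0.608).

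Atf5, a factor of the same family that is translated under stress like ATF4 and supports beta-cell survival, fell in alpha arrays. The beta arrays read 8.62, 8.58, 8.53, 8.67 and 8.82 and the alpha arrays 8.24, 7.77, 7.91, 8.04 and 8.18, with no overlap. Alpha minus beta was -0.62 (SE 0.14; limma adjusted p = 0.0296). The call was lost without beta replicate 1, 4 or 5 or alpha replicate 3 or 4 (limma adjusted p of 0.0601 to 0.078) and with quantile normalization (limma adjusted p = 0.182). The Pdx1-deficient arrays read 8.58, 8.08, 7.65, 7.98 and 7.90, for a difference from beta of -0.61 (SE 0.14). The array labelled replicate 1 was the only one of that group inside the beta range.

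Among the effector genes, Asns and Chac1 had the most negative differences between Pdx1-deficient and beta arrays. Asns, asparagine synthetase, a standard readout of ATF4 activity, read 10.30, 10.44, 10.35, 10.69 and 10.16 in beta arrays. The Pdx1-deficient arrays read 9.63, 9.24, 9.40, 8.47 and 8.79, and the alpha arrays 9.38, 9.26, 8.85, 9.63 and 9.27. No array of either group reached the lowest beta array, and the alpha and Pdx1-deficient arrays overlapped each other.

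Asns averaged 10.39 ± 0.19 (SD, n = 5), 9.28 ± 0.28 (SD, n = 5) and 9.11 ± 0.47 (SD, n = 5) in beta, alpha and Pdx1-deficient arrays. Alpha minus beta was -1.11 (SE 0.20), a 2.16-fold lower signal that passed (limma adjusted p = 0.00872) and passed in all 25 alternatives (limma adjusted p of 0.00243 to 0.0277). Pdx1-deficient minus beta was -1.28 (SE 0.20), 2.43-fold lower, and -0.96 without Pdx1-deficient replicates 4 and 5. The alpha comparison shares its 5 beta arrays with the comparison that led to the choice of genes.

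Chac1 encodes an enzyme that degrades glutathione and is induced through ATF4. Its beta arrays read 7.65, 8.17, 8.12, 8.27 and 8.78 and its Pdx1-deficient arrays 7.54, 7.23, 6.77, 6.38 and 6.85. These groups did not overlap, with the array labelled Pdx1-deficient replicate 1 closest to beta. The alpha arrays read 7.96, 7.15, 7.09, 7.39 and 6.90, with replicate 1 inside the beta range.

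Pdx1-deficient minus beta for Chac1 was -1.25 (SE 0.24), 2.37-fold lower. Alpha minus beta was -0.90 (SE 0.24) and stayed just outside the threshold (limma adjusted p = 0.0511), with values of 0.033 to 0.163 over the 25 alternatives and 7 of them past it.

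Vldlr, the very low density lipoprotein receptor and a target of ATF4, read 8.02, 8.41, 8.27, 8.69 and 8.02 in beta arrays and 7.35, 7.81, 7.12, 7.59 and 6.86 in alpha arrays, which did not overlap. Alpha minus beta was -0.94 (SE 0.24), 1.92-fold lower (limma adjusted p = 0.044). It passed in 12 of 25 alternatives and was lost when any 1 beta array, alpha replicate 1, 3, 4 or 5, or Pdx1-deficient replicate 2 or 3 was left out (limma adjusted p of 0.0551 to 0.107). The Pdx1-deficient arrays read 8.49, 7.94, 7.82, 7.12 and 7.26 and spread from the beta into the alpha range. Their difference from beta was -0.56 (SE 0.24) with all arrays, -0.75 without replicate 1 and -0.20 without replicates 4 and 5.

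Trib3, a pseudokinase that restrains ATF4 and AKT signalling, and Sesn2, a leucine sensor that restrains mTORC1, showed overlapping groups throughout. Trib3 averaged 6.15 ± 0.34 (SD, n = 5) in beta, 6.05 ± 0.12 (SD, n = 5) in alpha and 6.24 ± 0.24 (SD, n = 5) in Pdx1-deficient arrays, and its 15 readings lay between 5.89 and 6.73. Sesn2 averaged 7.08 ± 0.25 (SD, n = 5), 6.91 ± 0.29 (SD, n = 5) and 6.97 ± 0.18 (SD, n = 5), with readings between 6.51 and 7.31. Differences of alpha from beta arrays were -0.10 for Trib3 (limma adjusted p = 0.729) and -0.17 for Sesn2 (limma adjusted p = 0.537).

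Ppp1r15a encodes GADD34, the inducible phosphatase subunit that reverses eIF2 phosphorylation. It averaged 8.15 ± 0.23 (SD, n = 5) in beta, 8.50 ± 0.26 (SD, n = 5) in alpha and 7.96 ± 0.50 (SD, n = 5) in Pdx1-deficient arrays. The lowest reading of the 15 was 7.16 in Pdx1-deficient replicate 4. Pdx1-deficient minus beta was -0.19 and became 0.01 without that array. The difference of alpha from beta arrays was 0.35 (limma adjusted p = 0.345), the highest such difference among the 10 genes.

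**Figure D3:**
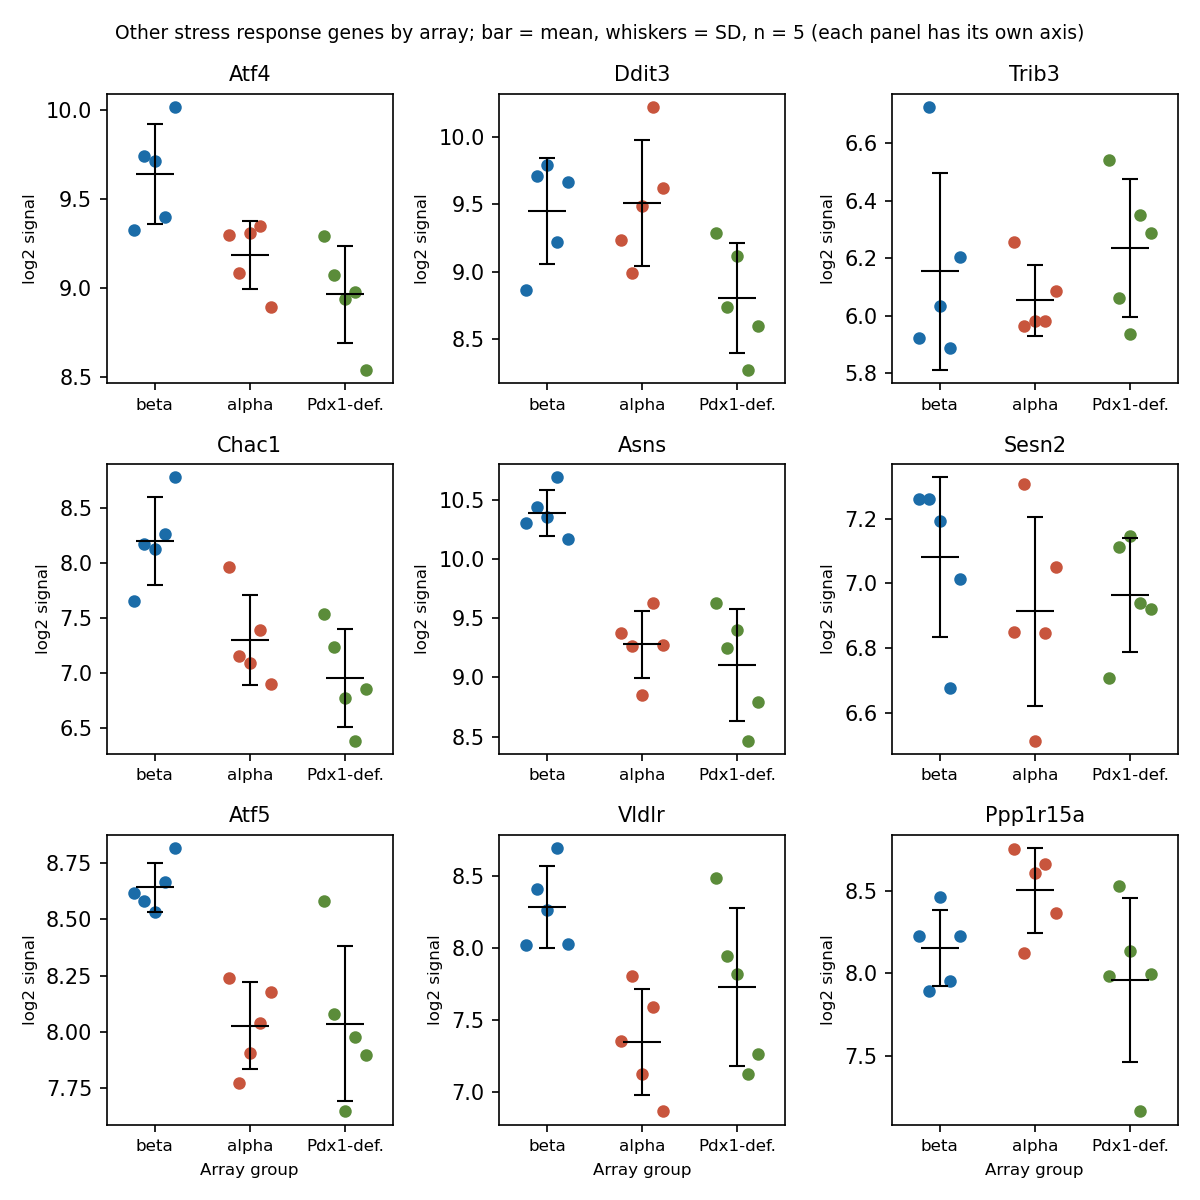
Log2 signal of the 9 genes other than Nupr1 in each array, 1 panel per gene with its own vertical axis, by group with mean and SD (n = 5). Asns, Chac1 and Atf4 show Pdx1-deficient arrays below all beta arrays, while Trib3, Sesn2 and Ppp1r15a overlap across groups.

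Counted over the set, Nupr1, Atf4, Chac1 and Asns, 4 of the 10 genes, had all Pdx1-deficient arrays below all beta arrays, where 3.18% of all genes did and 1.09% of all genes passed in limma. The rule used this contrast, so nothing is read from that count. Of the 9 genes other than Nupr1, 8 had a negative difference (7 with quantile normalization), and their median difference was -0.61 (-0.39 with quantile normalization). Over all genes the median difference was 0.06, and -0.084 after dim genes were removed. In alpha against beta arrays 3 of the 9 passed, all lower (Asns, Atf5 and Vldlr), where 4.04% of all genes passed and 3.15% passed as lower. These 3 were also the genes whose alpha arrays all lay below all beta arrays, which 4.05% of all genes did. The median difference of all 9 genes was -0.45 (-0.23 with quantile normalization), against 0.04 over all genes and -0.0775 after dim genes were removed. The count of 3 fell to 1 without beta replicate 4, beta replicate 5, alpha replicate 3 or alpha replicate 4. Quantile normalization changed the split of calls over all genes from 178 higher and 628 lower to 204 and 279 in alpha against beta, and from 32 higher and 185 lower to 2 and 2 in Pdx1-deficient against beta. Dim genes lower the shares over all genes. With them removed, 10606 genes were left, of which 162 passed as higher and 812 as lower in alpha against beta. In Pdx1-deficient against beta 36 of these passed as higher and 363 as lower.

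In Pdx1-deficient against alpha arrays 0 of the 9 genes passed in limma, where 0% of all genes passed. At an unadjusted p under 0.05, the count was 2 of 9 (Ddit3 and Ppp1r15a) and 6% of all genes. The differences between these groups ran from -0.71 for Ddit3 to 0.38 for Vldlr, with a median of -0.17. The 0% over all genes rested on 1 array: without alpha replicate 2, 72 genes passed as higher and 73 as lower, while the count for the 9 genes was still 0.

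**Figure D4:**
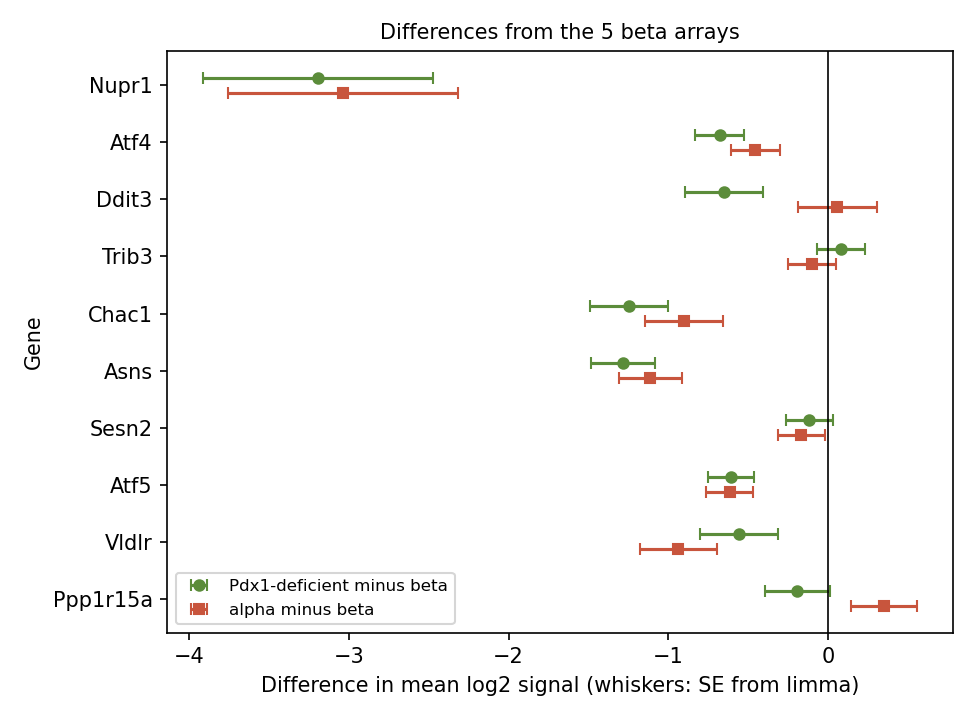
Difference in mean log2 signal from the 5 beta arrays (horizontal axis) for each of the 10 genes, for Pdx1-deficient arrays (circles) and alpha arrays (squares), with whiskers of 1 SE from limma. Nupr1 stands at -3.19 and -3.04, and Ddit3 and Ppp1r15a are the genes whose alpha difference lies above 0 at 0.06 and 0.35; both series share the same beta arrays.

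Many enzymes that charge tRNAs with amino acids are ATF4 targets. The list read here held cytosolic tRNA synthetase genes in general, not ATF4 targets alone. Of 20 cytosolic tRNA synthetase genes listed, 18 were measured, and 6 fell in Pdx1-deficient against beta arrays with 0 higher, where 0.928% of all genes passed as lower. Over all genes the median difference was 0.06, and -0.084 after dim genes were removed. In the 18 synthetase genes it was -0.80 (-0.61 with quantile normalization), and all 18 differences were negative (17 with quantile normalization). With dim genes removed, 10 of the 18 passed as lower, where 363 of the 10606 genes left did. The largest among those that passed were Sars at -1.15 (SE 0.25; limma adjusted p = 0.0455), Tars at -1.02 (SE 0.19; limma adjusted p = 0.0316), Cars at -0.996 (SE 0.18; limma adjusted p = 0.0316) and Mars1 at -0.95 (SE 0.17; limma adjusted p = 0.0316).

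The list mean was 8.64 to 8.85 in beta arrays, 7.70 to 8.42 in Pdx1-deficient arrays and 7.93 to 8.23 in alpha arrays, so every array of the latter groups lay below every beta array. The count of 6 became 10 without the array labelled Pdx1-deficient replicate 1 and 3 without beta replicate 3. It became 0 without beta replicate 1, 4 or 5 or Pdx1-deficient replicate 2, 4 or 5. Sars was also lost without beta replicate 2 or 3 or alpha replicate 4 or 5.

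In alpha against beta arrays 6 of the 18 synthetase genes also fell and 0 rose, where 3.15% of all genes passed as lower. The list median was -0.60 (-0.42 with quantile normalization), against 0.04 over all genes and -0.0775 after dim genes were removed. Wars fell by 1.52 (SE 0.31; limma adjusted p = 0.0163), Hars by 1.13 (SE 0.28; limma adjusted p = 0.0355), Cars by 1.04 (SE 0.18; limma adjusted p = 0.00756) and Yars by 0.84 (SE 0.18; limma adjusted p = 0.0182). All 18 differences were negative, and 16 with quantile normalization. Wars and Cars passed in all 25 alternatives, while Hars was lost without beta replicate 1, 2, 4 or 5 or alpha replicate 1, 3, 4 or 5, and Yars without beta replicate 1. The count was 3 without beta replicate 1 or beta replicate 4. In Pdx1-deficient against alpha arrays 0 passed in limma and 2 had an unadjusted p under 0.05, where 6% of all genes did.

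Targets of ATF4 and CHOP outside the 10 genes, listed apart from the synthetases, had list medians closer to 0. Of 38 listed, 36 were measured; 3 fell and 0 rose in Pdx1-deficient against beta arrays (over all genes 0.928% passed as lower), with a median of -0.20 and 33 not passing. Aldh1l2, a mitochondrial folate enzyme, fell by 1.50 (SE 0.34; limma adjusted p = 0.0495), Slc7a5, the large neutral amino acid transporter, by 1.01 (SE 0.17; limma adjusted p = 0.0316) and Aldh18a1, which starts proline synthesis, by 0.62 (SE 0.10; limma adjusted p = 0.0309). The count was 0 without beta replicate 1, 4 or 5 or Pdx1-deficient replicate 2, 4 or 5. Aldh1l2 was also lost without beta replicate 2 or 3, alpha replicate 1, 4 or 5 or Pdx1-deficient replicate 3. Of the 36 differences from beta, 26 were negative in Pdx1-deficient arrays (25 with quantile normalization) and 29 in alpha arrays (27 with quantile normalization). The list mean was 7.29 to 7.34 in beta, 6.91 to 7.23 in alpha and 6.93 to 7.13 in Pdx1-deficient arrays. As for the synthetases, every array of the latter groups lay below every beta array.

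In alpha against beta arrays 5 of the 36 fell and 1 rose, where 3.15% of all genes passed as lower and 0.893% as higher, and the list median was -0.15. The genes that fell included Aldh1l2 (-1.71, limma adjusted p = 0.0149), Slc7a5 (-1.01, limma adjusted p = 0.00747) and Map1lc3b, an autophagosome protein gene (-0.70, limma adjusted p = 0.0207). Aldh1l2 and Slc7a5 passed in all 25 alternatives here, and Map1lc3b was lost without beta replicate 1, 4 or 5 or alpha replicate 3 or 5. The gene that rose was Atf3, a stress-induced repressor that is also an immediate early gene, at 2.30 (SE 0.46; limma adjusted p = 0.0152), a call made in all 25 alternatives.

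Atf3 read 8.28, 8.07, 8.25, 7.46 and 7.97 in beta arrays, 10.86, 8.15, 10.98, 11.17 and 10.36 in alpha arrays and 9.37, 9.78, 8.83, 8.35 and 9.22 in Pdx1-deficient arrays. All Pdx1-deficient arrays lay above all beta arrays, the opposite order from Atf4, with a difference of 1.10 that did not pass (limma adjusted p = 0.186). Pdx1-deficient minus alpha was -1.19 (limma adjusted p = 0.707). Without alpha replicate 2 it was -1.73 and passed (limma adjusted p = 0.00465), the only call in this list between these groups. With all arrays the count in this list was 0 in limma and 1 at an unadjusted p under 0.05, where 6% of all genes did.

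The mean of 15 immediate early and dissociation stress genes was 8.01 to 8.56 in beta, 8.35 to 9.14 in alpha and 8.57 to 8.81 in Pdx1-deficient arrays. All 15 differences of alpha from beta arrays were positive, also with quantile normalization, with a median of 0.52 (0.70 with quantile normalization). Of the differences of Pdx1-deficient from beta arrays 13 were positive (14 with quantile normalization), with a median of 0.185 (0.40 with quantile normalization). In alpha against beta arrays 1 of them passed as higher (Zfp36, limma adjusted p = 0.0488) and 10 had an unadjusted p under 0.05, where 20.7% of all genes did; over the 25 alternatives 0 to 7 passed as higher. In Pdx1-deficient against beta arrays 0 passed and 4 had an unadjusted p under 0.05, where 21.8% of all genes did; over the alternatives 0 to 2 passed. The part of this signal in the Atf3 values was not tested.

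**Figure D5:**
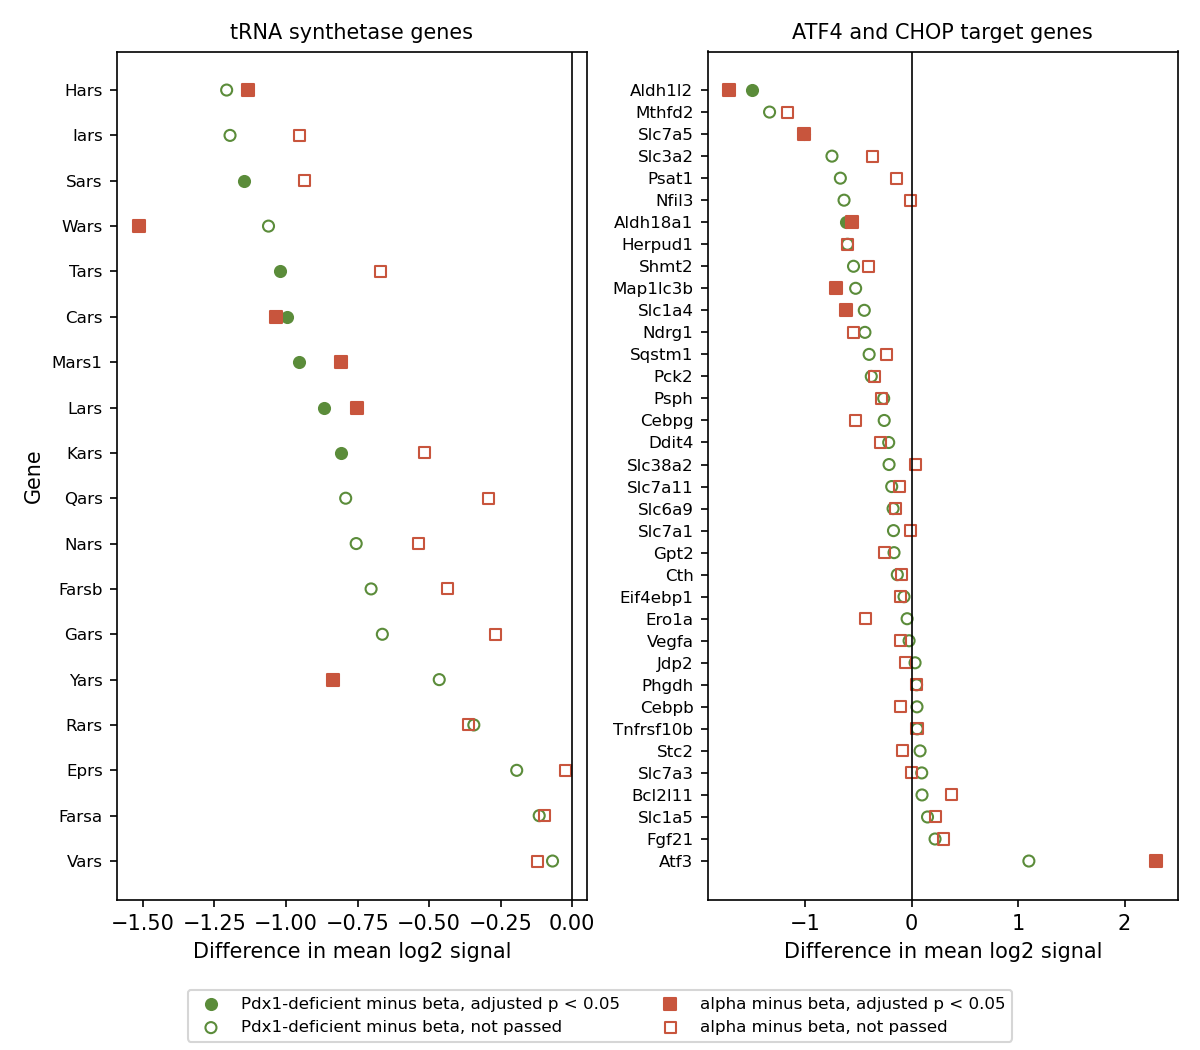
Difference in mean log2 signal from beta arrays (horizontal axis) for 18 tRNA synthetase genes (left) and 36 listed ATF4 and CHOP target genes (right). Pdx1-deficient values are circles and alpha values squares, filled where the limma adjusted p is under 0.05. All 18 synthetase genes lie left of 0 in both comparisons, while the targets at right spread around medians of -0.20 and -0.15, with Atf3 alone far to the right.

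The genes that set eIF2 phosphorylation were measured for 18 of 19 listed. In Pdx1-deficient against beta arrays 1 fell and 0 rose, with a list median of -0.39, where 0.928% of all genes passed as lower. The gene that fell was Eif2ak3, which encodes PERK, at -0.72 (SE 0.15, limma adjusted p = 0.0367). That call was lost without any 1 beta array or without Pdx1-deficient replicate 2, 4 or 5 (limma adjusted p of 0.0524 to 0.0908), and the count was 2 without the array labelled Pdx1-deficient replicate 1. In alpha against beta arrays 1 fell, with a list median of -0.28, where 3.15% of all genes passed as lower. It was Dnajc3, an inhibitor of the eIF2 kinases and a chaperone partner in the endoplasmic reticulum, at -0.69 (SE 0.16, limma adjusted p = 0.0292). That call was lost without beta replicate 2, 3 or 4 or alpha replicate 1, 3, 4 or 5 (limma adjusted p of 0.0553 to 0.0779), and the count was 2 without Pdx1-deficient replicate 5. Between Pdx1-deficient and alpha arrays 0 passed in limma and 1 had an unadjusted p under 0.05, where 6% of all genes did.

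Paralogs of the 10 genes gave 21 measured of 23 listed. In Pdx1-deficient against beta arrays 1 of the 21 fell and 0 rose, where 0.928% of all genes passed as lower. In alpha against beta arrays 1 fell and 1 rose, where 3.15% of all genes passed as lower and 0.893% as higher. Creb3l1, an endoplasmic reticulum-bound factor of the CREB and ATF family, fell by 1.31 in Pdx1-deficient arrays (SE 0.20; limma adjusted p = 0.0234) and by 1.55 in alpha arrays (SE 0.20; limma adjusted p = 0.00211). Lrp1, a large lipoprotein receptor of the Vldlr family, rose by 0.69 in alpha arrays (SE 0.13; limma adjusted p = 0.0124). These alpha calls were made in all 25 alternatives, while the call of Creb3l1 in Pdx1-deficient arrays was lost without beta replicate 1, 4 or 5 or Pdx1-deficient replicate 4 or 5. The list medians were -0.04 and -0.21, and the first turned to 0.12 with quantile normalization.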

How the data were processed

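Per the submitters' processing notes, the authors processed the arrays in Affymetrix Expression Console. The deposited values, 1 per transcript cluster and array, run from 2.11 to 13.45 and were taken as log2. No label or file header names the summarization, the background correction, the log base or the genome build (not given in the sources used here). The platform annotation gave 1 symbol for 21789 of 35556 clusters, several for 1621 and none for 12146; 21698 of the single-symbol clusters matched the reference gene table by gene ID and 0 symbols changed. Each gene was read from its cluster with the highest mean over 15 arrays.

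Groups come from the titles. limma 3.58.1 in R 4.3.3 fitted 3 group means over 15 arrays (lmFit, eBayes), with Benjamini-Hochberg adjustment over 19938 genes and a threshold of 0.05. The fit was tested on simulated data. Members, lists and alternatives were chosen with earlier results of these data known. From the pathway and paralog lists the text names up to 4 genes past the threshold per comparison by size; for likeness, the 5 highest r among genes above the median mean; other genes named (Ins2, Gcg, Nupr1l, Cpa1, Zfp36 and the further list genes below) were chosen after their values were seen. The number of arrays limits the precision, and arrays that stand apart from their group lower it further. Alternatives changed scaling, moderation, the filter, the cluster rule, the samples fitted, the block and the arrays kept.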

Additional observations from a re-analysis of the deposited data

Results flagged for a closer look

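Nupr1 in alpha replicate 5 read 11.48, where the next alpha array read 7.94, a gap of 0.765 of the group's whole range against a limit of 0.71 for 5 arrays. Of 30 such groups of 5 arrays (10 genes in 3 groups) this was the only one past the limit, and chance alone gives about 1 in 20. The mean signal of 12 acinar genes in the same array was 10.68, and its part in the Nupr1 reading was not tested.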

How the results depend on the processing

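The members' values, the counts of the members and of the ATF4 target, tRNA synthetase and eIF2 control lists, and the genes that the naming rule takes from the lists were recomputed under 25 alternatives, of which 15 left out 1 array (the other lists: only their counts of calls, given beside them as ranges); leaving out Pdx1-deficient replicates 4 and 5 together, or alpha replicates 2 and 5 together, was chosen after seeing the data. The 12 untested values of the members moved by less than 1 SD, pooled over the 3 groups, in all 300 recomputations. Nupr1 ran from -3.48 to -2.74 in Pdx1-deficient against beta arrays. This rule ignores the sign, and for Nupr1 alpha replicate 5 widens the SD. The sign did change for Nupr1 in Pdx1-deficient against alpha (-0.46 to 0.93) and for Ppp1r15a in Pdx1-deficient against beta (-0.33 to 0.06). Of 975 recomputations of 39 tested gene results, 809 kept direction and side of the threshold, 144 lost the threshold, 10 gained it and 12 changed sign; the cause was not tested. The sign changed in results near 0: Ddit3 in alpha against beta (-0.12 to 0.19 over single arrays left out; -0.09 without beta replicate 1), Trib3 in alpha against beta (-0.17 to 0.042), and, in Pdx1-deficient against alpha, Sesn2 (-0.049 to 0.15), Asns (0.15 without Pdx1-deficient replicates 4 and 5) and Atf5 (-0.13 to 0.11; -0.011 with array medians subtracted, -0.19 without Pdx1-deficient replicate 1 and alpha replicate 2, -0.026 without alpha replicates 2 and 5). With quantile normalization the counts in Pdx1-deficient against beta arrays were 0 for ATF4 targets, tRNA synthetases and eIF2 control, and in alpha against beta 1 for members and 2 for tRNA synthetases. Replicate numbers did not pair the arrays (same-number correlations of deviations -0.172 to 0.224, not every array closest to its own number); with the replicate block the counts in Pdx1-deficient against beta were 0 for ATF4 targets, 1 for tRNA synthetases and 0 for eIF2 control. Without Pdx1-deficient replicates 4 and 5 these 3 counts were 0, and eIF2 control in alpha against beta was 2. Without alpha replicates 2 and 5 members in alpha against beta were 1, eIF2 control there 2, and ATF4 targets in Pdx1-deficient against alpha 1. Without Pdx1-deficient replicate 1 and alpha replicate 2, tRNA synthetases were 10 and eIF2 control 2 in Pdx1-deficient against beta, tRNA synthetases 11 in alpha against beta, and ATF4 targets 1 in Pdx1-deficient against alpha. Trend and robust moderation gave 0 for eIF2 control in Pdx1-deficient against beta, fitting only the 2 groups compared gave 2 for it in alpha against beta, and removing dim genes gave 10 tRNA synthetases in Pdx1-deficient against beta. Leaving out 1 array gave, in Pdx1-deficient against beta, 0 to 4 ATF4 targets, 0 to 10 tRNA synthetases and 0 to 2 eIF2 control genes; in alpha against beta, 1 to 4 members, 4 to 7 ATF4 targets, 3 to 8 tRNA synthetases and 0 to 2 eIF2 control genes; and in Pdx1-deficient against alpha, 0 to 1 ATF4 targets. In Pdx1-deficient against alpha, members, tRNA synthetases and eIF2 control stayed at 0 in all 25 alternatives.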

Other observations

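The other arms of the unfolded protein response were read from a list of 22 target genes of IRE1 and ATF6, which hold chaperones and genes of protein folding and disposal in the endoplasmic reticulum. In alpha against beta arrays 16 of the 22 passed as lower and 0 as higher, where 3.15% of all genes passed as lower, with a median of -0.83; over the 25 alternatives 12 to 18 passed as lower. In Pdx1-deficient against beta arrays 9 passed as lower and 0 as higher, where 0.928% of all genes passed as lower, with a median of -0.76. That count was 0 with quantile normalization, with the replicate block, without Pdx1-deficient replicates 4 and 5 together, and without beta replicate 1, 4 or 5 or Pdx1-deficient replicate 4 or 5 alone. It was 2 without beta replicate 3, 1 without Pdx1-deficient replicate 2, 3 with only the 2 groups fitted, 14 with dim genes removed, 15 without the array labelled Pdx1-deficient replicate 1 and 17 without that array and alpha replicate 2. With dim genes removed, 363 of the 10606 genes left passed as lower. All 22 differences were negative in both comparisons, which share the beta arrays; with quantile normalization 21 were negative in the Pdx1-deficient comparison. The list mean was 9.78 to 10.09 in beta, 8.88 to 9.32 in alpha and 8.90 to 9.48 in Pdx1-deficient arrays. Between Pdx1-deficient and alpha arrays 0 passed in limma and 1 had an unadjusted p under 0.05, where 6% of all genes did.

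Markers of other cells were read in the same fit. Over all genes, 3.15% passed as lower and 0.893% as higher in alpha against beta arrays. In Pdx1-deficient against beta arrays these shares were 0.928% and 0.16%. Bhlha15, an acinar transcription factor gene, was the 1 of 12 acinar genes that passed, lower than in beta arrays in alpha (-1.16, limma adjusted p = 0.00632) and in Pdx1-deficient arrays (-1.09, limma adjusted p = 0.0316). In the Pdx1-deficient arrays this call was lost without beta replicate 1, 4 or 5 or Pdx1-deficient replicate 2, 4 or 5. In alpha arrays 1 of 8 delta, PP and epsilon cell genes passed as higher (Rbp4) and 1 as lower (Casr), 1 of 8 duct genes as lower (Cldn7) and 1 of 10 stromal genes as higher (Rgs5); over the alternatives these counts ran from 0 to 1, 0 to 1, 0 to 3 and 0 to 4. In Pdx1-deficient against beta arrays 0 genes of the delta, duct, endothelial, leukocyte and stromal lists passed in limma. At an unadjusted p under 0.05 the counts were 1, 1, 1, 2 and 1, where 21.8% of all genes did so. The stromal list nevertheless had all 10 differences positive (8 with quantile normalization), a median of 0.18, and a list mean of 5.56 to 5.74 in Pdx1-deficient arrays, above the 5.30 to 5.52 of the beta arrays; in alpha arrays it was 5.37 to 6.08. The list means of delta, PP and epsilon genes were 9.23 to 9.64 in beta, 9.22 to 9.88 in alpha and 8.96 to 9.46 in Pdx1-deficient arrays, and those of duct genes 6.89 to 7.28, 6.76 to 7.01 and 6.94 to 7.07. The endothelial list mean was 5.12 to 5.49 and the leukocyte list mean 5.07 to 5.48 over the 15 arrays. In alpha against beta arrays 0 of their genes passed, with 0 and 2 at an unadjusted p under 0.05, where 20.7% of all genes did. Of the identity lists, 5 of 11 beta-cell genes passed as lower (0 to 7 over the alternatives) and 4 of 8 alpha-cell genes as higher (3 to 6) in alpha arrays. In Pdx1-deficient arrays 1 of 11 passed as lower (0 to 6) and 1 of 8 as higher (0 to 1).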
